A study of Homo sapiens with 6 samples.

Results

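The mitotic genes described here are 41 genes that encode the kinases of cell division, the spindle checkpoint, the machinery of cytokinesis and closely tied factors. They were chosen by symbol, and all 41 were listed among the 17211 genes of the deposited table. RNA was sequenced from CAOV2, a human ovarian cancer cell line, transfected with siRNA and collected on day 3. The siTAZ group (3 libraries) received siRNA that silences TAZ, and the siNT group (3 libraries) a non-targeting control siRNA from another supplier. The labels give no other difference between the groups and call CAOV2 both a cell line and primary cells. TAZ, encoded by WWTR1, is a coactivator that the Hippo pathway restrains and that works with TEAD factors. The labels name 1 siRNA product against TAZ, so loss of TAZ and other effects of that siRNA cannot be told apart.

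Cells enter mitosis when cyclin B and CDK1 become active, and they leave it when the anaphase-promoting complex marks cyclin B and securin for destruction. Polo-like and Aurora kinases build the spindle, the spindle checkpoint holds anaphase until every chromosome is attached, and a contractile ring then parts the daughter cells. Most genes of this machinery are transcribed late in the cell cycle, through the MuvB complex with B-MYB and FOXM1, so their transcripts mark dividing cells in tumours and cultures.

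WWTR1 showed that the labels hold: its deposited values, which are reads divided by a size factor per library, were 242, 277 and 280 in siTAZ, against 4359, 4217 and 4258 in siNT. Its paralog YAP1 was 1.23-fold lower, at 4693, 4867 and 5064 in siTAZ, against 6221, 5801 and 5955 in siNT. The libraries held 28458503 to 34488196 reads in siTAZ and 25478595 to 28928432 in siNT. All 6 epithelial markers were listed, with a summed value of 92338 to 100591 in siTAZ and 96330 to 104749 in siNT. Of these, 4 were called higher and 2 lower: EPCAM had 1387, 1313 and 1383 in siTAZ, against 512, 498 and 492 in siNT, and KRT7 had 9618, 8118 and 8074 in siTAZ, against 21403, 23367 and 23771 in siNT. Of 6 markers of ovarian carcinoma, WT1, WFDC2 and SOX17 were not listed, and PAX8, MUC16 and MSLN together reached at most 38.4 in siTAZ and 59.9 in siNT, so these markers of the labelled tissue were absent or low. None of 5 endothelial markers was listed, nor were the leukocyte markers PTPRC and CD3E. The 3 leukocyte markers that were listed summed to 268 to 318 in siTAZ and 137 to 145 in siNT, and 5 of 7 fibroblast markers to 5271 to 6064 in siTAZ and 4592 to 5331 in siNT. Their part in the results below was not tested. Replicate 1 of each group stood apart: set against the other replicates of its group, its reads gave a chi-square per degree of freedom of 7.57 and 8.62 in siTAZ and 5.50 and 6.69 in siNT, while replicates 2 and 3 differed by 2.90 in siTAZ and 2.75 in siNT. Only some of the results that move without both are given in both forms.

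Most of the mitotic genes fell by small amounts after TAZ silencing. Of the 41, 31 fell, 0 rose and 10 did not pass the test (limma on log2(value + 1), Benjamini-Hochberg adjusted p under 0.05 over 17204 genes). Over all genes tested, 55.8% were called in either direction, 27.5% lower and 28.3% higher, and among genes with a mean value of at least 1000 the share called lower was 38.4%. The members' share was 75.6%. Their median log2 fold change, siTAZ over siNT, was -0.23, with a range of -1.22 to 0.12, while the median of all genes tested was -0.001. By edgeR's quasi-likelihood test on the recovered reads 1 member, FOXM1, was called higher, by DESeq2 0 were, and 1 was higher at an unadjusted limma p under 0.05. The falls were shallow: 3 members (7.32%) were called and at least 1.5-fold lower in mean, where the share over all genes was 9.31%. Among genes with a mean of at least 1000 that share was 5.71%. At least 1.2-fold lower were 17 members (41.5%), where the shares over all genes and over genes with that mean were 20.4% and 22.8%. Tested with limma against a fold of 1.2, 15 members were called lower, where 11.2% of all genes were. In a bulk library, fewer cells in mitosis and less of each transcript per cell cannot be told apart.

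**Figure D1:**
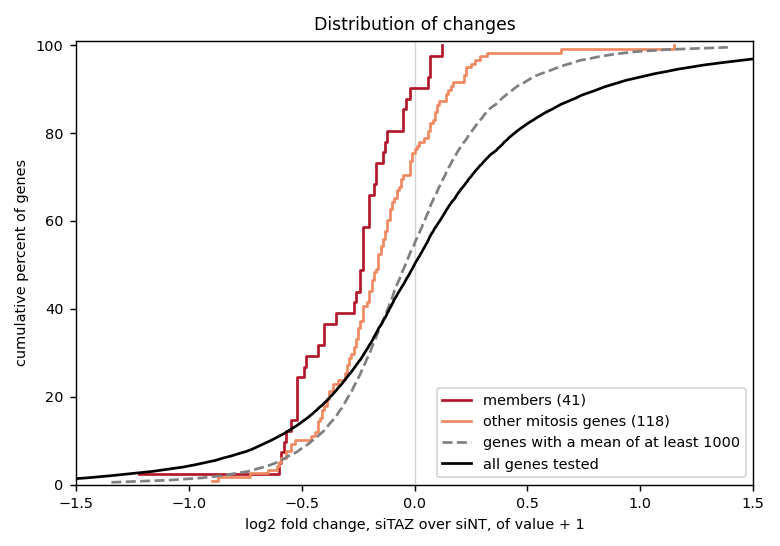
Cumulative percent of genes (vertical axis) by log2 fold change, siTAZ over siNT, of value + 1 (horizontal axis), for the 41 members, 118 other mitosis genes, genes with a mean of at least 1000 and all genes tested. The curve of the members lies to the left of that of all genes through its middle, with a median of -0.23, and ends at 0.12, while at strong falls the curve of all genes lies above it.

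In siTAZ the 41 genes together took 0.585%, 0.596% and 0.612% of the reads of replicates 1, 2 and 3, against 0.713%, 0.688% and 0.700% in siNT. The groups did not overlap in this share. Taken gene by gene, 32 members were lower in every siTAZ library than in every siNT library, and 1, FOXM1, was higher in every one. Over all genes, 30.3% were lower without overlap and 31.1% higher. Against the siNT mean of each gene, 38, 37 and 35 of the 41 were lower in siTAZ replicates 1, 2 and 3. In siNT replicates 1, 2 and 3 the same counts were 13, 33 and 19, so siNT replicate 2 came near siTAZ replicate 3 in count. The members' median log2 deviation from that mean was -0.28, -0.24 and -0.19 in siTAZ, and 0.04, -0.03 and 0.002 in siNT.

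**Figure D2:**
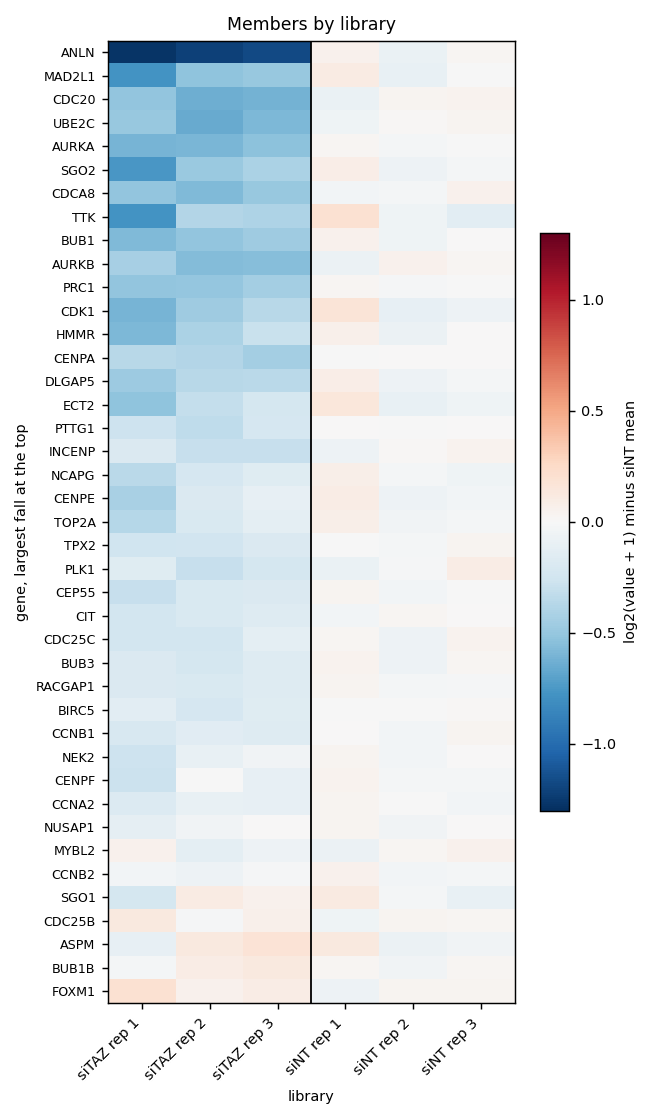
Colour gives log2(value + 1) of each member (rows, largest fall at the top) in each library (columns, siTAZ then siNT) minus that gene's siNT mean. The 31 genes that fell are below 0 in all 3 siTAZ libraries, with ANLN at the top at -1.22 on average, and the last row, FOXM1, is above 0.

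The promoters of many of these genes hold known elements, shown here as a description. The CHR (cell cycle genes homology region) is bound by MuvB through LIN54, and the CCAAT box by the factor NF-Y. RefSeq promoter windows (GRCh38.p14, 250 bases before to 50 after the start) matched 33 of the 41 by symbol. On either strand, 75.8% of the 33 held a CHR (TTTGAA or TTTAAA), against 19.5% of the windows of 15843 protein-coding genes. A CCAAT box (CCAAT) was held by 78.8%, against 36.4%, and both elements by 21 of the 33 (63.6%), against 7.95%. A TEAD motif (GGAATG) was held by 3 of the 33 (9.09%; CENPF, CENPE and HMMR), against 11.7% of protein-coding genes, and an E2F motif (TTTCCCGC, TTTCGCGC, TTTGGCGC or TTTGCCGC) by 3 (9.09%; CENPA, CDK1 and NUSAP1), against 4.44%. Of 106 other mitosis genes with a window, 25.5% held both CHR and CCAAT. Below are the 150 bases just before the start of the 6 members with the largest changes that held both CHR and CCAAT there, with matches of all 4 motifs in capitals.
CDC20 (chr1:43358831-43358980, plus strand): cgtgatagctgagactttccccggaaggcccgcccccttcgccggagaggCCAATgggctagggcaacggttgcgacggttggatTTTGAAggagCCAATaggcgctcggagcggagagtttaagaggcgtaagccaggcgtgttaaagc
CDCA8 (chr1:37692366-37692515, plus strand): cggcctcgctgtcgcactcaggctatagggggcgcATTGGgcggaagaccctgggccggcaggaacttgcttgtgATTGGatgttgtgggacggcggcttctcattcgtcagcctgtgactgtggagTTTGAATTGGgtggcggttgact
PRC1 (chr15:90994536-90994685, minus strand): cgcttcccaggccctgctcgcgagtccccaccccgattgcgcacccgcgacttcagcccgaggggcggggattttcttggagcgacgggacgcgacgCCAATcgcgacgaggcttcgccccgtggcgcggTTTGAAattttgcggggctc
CDK1 (chr10:60778181-60778330, plus strand): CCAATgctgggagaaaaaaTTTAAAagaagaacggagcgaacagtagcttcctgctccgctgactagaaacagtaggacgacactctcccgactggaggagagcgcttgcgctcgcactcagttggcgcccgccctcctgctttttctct
HMMR (chr5:163460482-163460631, plus strand): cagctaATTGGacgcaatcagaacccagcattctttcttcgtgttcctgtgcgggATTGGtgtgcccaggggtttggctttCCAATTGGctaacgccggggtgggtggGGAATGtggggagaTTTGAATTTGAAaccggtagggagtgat
CENPA (chr2:26785906-26786055, plus strand): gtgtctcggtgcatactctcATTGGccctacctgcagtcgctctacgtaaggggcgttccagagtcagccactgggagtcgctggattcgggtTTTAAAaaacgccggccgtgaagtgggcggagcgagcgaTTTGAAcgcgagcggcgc
In CDC20, CDCA8, PRC1 and HMMR a CHR of the form TTTGAA stood at -65 to -60, -23 to -18, -20 to -15 and -28 to -23 from the start. The CHR and a CCAAT box on the opposite strand overlap by a base in CDCA8, and HMMR carried a second CHR directly after the first and a TEAD motif at -42 to -37. CENPA held this form at -18 to -13, and CDK1 at -161 to -156, just outside the bases shown. Both also held a CHR of the form TTTAAA, which reads the same on both strands. ANLN, with the largest fall, held CHR matches at -26 to -21 and -20 to -15 but no CCAAT match in its window. Of the 21 members with both elements, 17 fell, with a median log2 fold change of -0.27. ASPM, CENPF, NUSAP1 and CCNB2 also held both and did not pass the test. Of the 12 without both, 7 fell, with a median of -0.17. Over all genes tested, 27.5% were called lower. A match describes letters and does not show binding. The members were picked by symbol as mitotic genes, so the shares with an element describe that list. Whether these elements had a part in the falls was not tested.

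Cytokinesis genes all fell, 6 of 6, with a median log2 fold change of -0.29. For this and the role groups below, 27.5% of all genes tested were called lower, and 38.4% of those with a mean of at least 1000. Lower without overlap were 30.3% of all genes, and no role group was tested as a set. ANLN, the anillin that ties actin, myosin and septins to the cleavage furrow, had values of 4889, 5103 and 5220 in siTAZ, against 12277, 11133 and 12062 in siNT. It was the lowest of the members by far, 2.33-fold lower (log2 fold change -1.22, SE 0.05, limma adjusted p = 3.9e-12), and the next member, MAD2L1, was at -0.60. Without replicate 1 of both groups, MAD2L1 was at -0.45, above CDC20 at -0.67 and UBE2C at -0.65. PRC1, which bundles the microtubules of the central spindle, had 4812, 4844 and 5047 in siTAZ, against 6962, 6800 and 6818 in siNT, and fell 1.40-fold (limma adjusted p = 7.2e-08). The groups stood clear of each other, with a narrow spread in both. ECT2, the exchange factor that activates RHOA at the equator, had 4115, 4760 and 5045 in siTAZ, against 6533, 5502 and 5687 in siNT, a log2 fold change of -0.35 (limma adjusted p = 0.00049) that shrank to -0.19 without replicate 1 of both groups. CEP55, which marks the midbody for abscission, CIT, the citron kinase, and RACGAP1, the centralspindlin subunit that recruits ECT2, fell by 0.23, 0.20 and 0.18 on the log2 scale, and their siTAZ and siNT values did not overlap either.

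**Figure D3:**
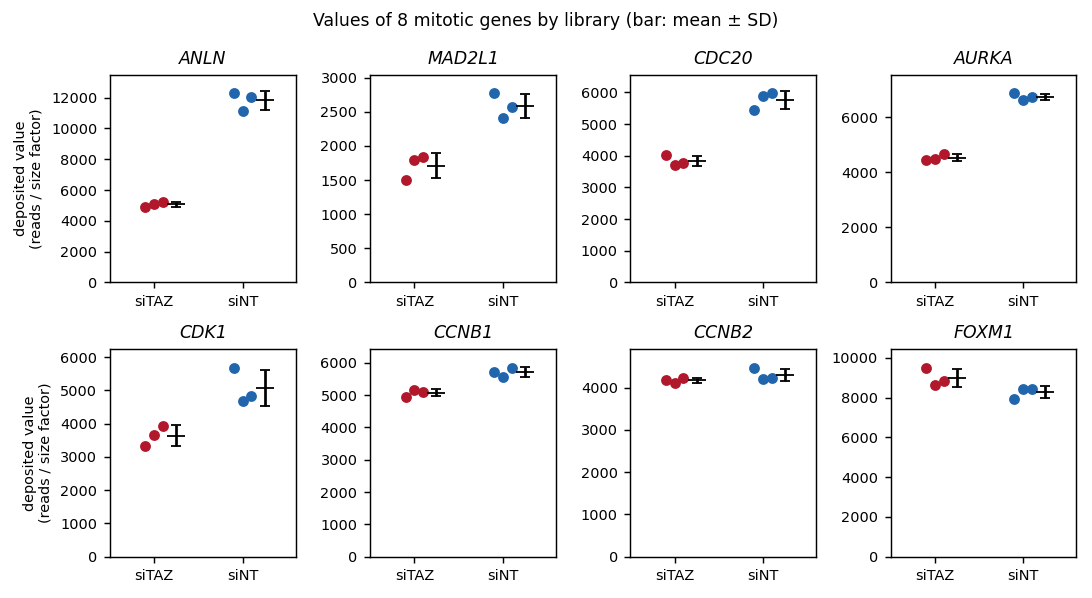
Deposited values (reads over size factor, vertical axes from 0) of 8 mitotic genes in each siTAZ and siNT library (points), with the mean ± SD of 3 libraries beside them. ANLN, MAD2L1, CDC20, AURKA, CDK1 and CCNB1 are lower in all siTAZ libraries, CCNB2 overlaps, and FOXM1 is slightly higher in siTAZ.

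Among the genes that promote anaphase or guard cohesion, 4 of 5 fell, with a median of -0.55. CDC20, the activator that the checkpoint holds back from the anaphase-promoting complex, had 4029, 3707 and 3774 in siTAZ, against 5445, 5899 and 5966 in siNT, and fell (log2 fold change -0.59, SE 0.05, limma adjusted p = 4.1e-08). UBE2C, the ubiquitin-conjugating enzyme of that complex, had 5286, 4726 and 4942 in siTAZ, against 7147, 7525 and 7597 in siNT, and fell 1.49-fold. Both showed the same order, with replicate 1 highest in siTAZ and lowest in siNT. PTTG1, the securin that inhibits separase, had 3035, 2923 and 3156 in siTAZ, against 3679, 3659 and 3674 in siNT (log2 fold change -0.27, limma adjusted p = 0.0001). The shugoshins, which protect centromeric cohesion, parted: SGO2 had 825, 999.5 and 1052 in siTAZ, against 1485, 1334 and 1369 in siNT, a log2 fold change of -0.55 (limma adjusted p = 1.4e-05). SGO1 had 411.5, 518.6 and 500.6 in siTAZ, against 523.6, 474.6 and 450.7 in siNT, with overlapping groups and a 95% interval of -0.21 to 0.17 on the log2 scale. The difference between both shugoshins was not tested.

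Of 5 spindle checkpoint genes, 4 fell, with a median of -0.52. MAD2L1, the MAD2 protein that inhibits CDC20, had 1506, 1796 and 1834 in siTAZ, against 2768, 2409 and 2567 in siNT, and fell 1.51-fold (log2 fold change -0.60, SE 0.07, limma adjusted p = 1.8e-06). BUB1, a kinase of the kinetochore, had 4496, 4692 and 4852 in siTAZ, against 6974, 6442 and 6718 in siNT, and fell 1.43-fold (limma adjusted p = 9.2e-08). TTK, the MPS1 kinase that starts checkpoint signalling, was scarcer and more spread, at 649.4, 854.5 and 847.8 in siTAZ, against 1279, 1071 and 1016 in siNT (limma adjusted p = 0.00024). The siTAZ and siNT values of all 3 genes were apart. BUB3, which carries BUB1 and BUBR1 to kinetochores, averaged 3970 ± 90.8 in siTAZ and 4554 ± 180 in siNT (SD, n = 3 each), a fall of 1.15-fold. BUB1B, which encodes BUBR1, was against the others in direction and did not pass, at 4173, 4542 and 4636 in siTAZ and 4301, 4101 and 4310 in siNT (log2 fold change 0.07, interval -0.04 to 0.18, limma adjusted p = 0.25). It passed as higher without siTAZ replicate 1 (limma adjusted p = 0.042), without replicate 1 of both groups (0.0046) and under total count scaling (0.049), while the other alternatives left it short, with an adjusted p of up to 1.

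The chromosomal passenger complex fell in all 4 subunits, with a median of -0.39. AURKB, its kinase, had 3685, 3368 and 3376 in siTAZ, against 4701, 5168 and 5056 in siNT, and fell 1.43-fold (log2 fold change -0.52, SE 0.05, limma adjusted p = 2.8e-07). CDCA8, the borealin that helps target the complex to centromeres, had 2626, 2509 and 2658 in siTAZ, against 3651, 3666 and 3889 in siNT, and fell 1.44-fold (limma adjusted p = 9.9e-08). These subunits had nearly equal fold changes. INCENP, the scaffold, fell by 0.26 on the log2 scale, at 4093 ± 189 in siTAZ and 4909 ± 185 in siNT. BIRC5, survivin, fell by 0.17, at 3122 ± 92.4 in siTAZ and 3521 ± 24.7 in siNT (SD, n = 3 each).

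Of the mitotic kinases and their activators, 3 of 4 fell. AURKA, the Aurora kinase of centrosomes and spindle poles, had 4428, 4466 and 4664 in siTAZ, against 6856, 6624 and 6713 in siNT (log2 fold change -0.57, SE 0.04, limma adjusted p = 1.1e-08). TPX2, which activates AURKA on spindle microtubules, had the highest deposited value of the members, uncorrected for length, and a smaller fold change, at 19950, 20150 and 21020 in siTAZ, against 23883, 23434 and 24487 in siNT (log2 fold change -0.23, limma adjusted p = 0.00025). PLK1, the polo-like kinase of mitotic entry and spindle assembly, had 6258, 5662 and 5933 in siTAZ, against 6584, 6902 and 7463 in siNT (log2 fold change -0.23, limma adjusted p = 0.0015). The siTAZ and siNT values of all 3 were apart, with a narrow gap in PLK1. NEK2, which splits the centrosomes, had 731.5, 822.4 and 854.6 in siTAZ and 904.7, 856.2 and 879.7 in siNT and did not pass (interval -0.28 to 0.01, limma adjusted p = 0.098). After the GC correction described below, NEK2 passed as lower (limma adjusted p = 0.01).

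The cyclins and CDK1 moved unevenly, with 4 of 6 genes lower. CDK1 had 3318, 3651 and 3942 in siTAZ, against 5679, 4684 and 4831 in siNT, and fell 1.39-fold (log2 fold change -0.48, SE 0.07, limma adjusted p = 2.0e-05). CCNB1, its main mitotic cyclin, had 4950, 5168 and 5094 in siTAZ, against 5725, 5552 and 5844 in siNT, and fell less (log2 fold change -0.17, limma adjusted p = 0.0038). CCNB2 had 4181, 4115 and 4237 in siTAZ and 4470, 4199 and 4219 in siNT and did not pass, with an interval of -0.14 to 0.06. The fold change of the kinase transcript was larger than that of either B-type cyclin, a difference between genes that was not tested. CCNA2, cyclin A2, which acts in S phase and early mitosis, fell by 0.12 (limma adjusted p = 0.033), a call lost without any 1 of the 6 libraries (0.054 to 0.094). CDC25C, a phosphatase that activates CDK1, averaged 587 ± 27.7 in siTAZ and 674 ± 27.5 in siNT and fell by 0.20 (limma adjusted p = 0.018), which was lost without siTAZ replicate 2 (0.077) or siNT replicate 3 (0.076). Its relative CDC25B did not pass, at 5844 ± 291 in siTAZ and 5612 ± 198 in siNT (SD, n = 3 each, limma adjusted p = 0.34).

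Of the kinetochore and centromere genes, CENPA, the histone H3 variant of centromeres, had 1032, 1017 and 978.3 in siTAZ, against 1324, 1329 and 1334 in siNT, and fell 1.32-fold (limma adjusted p = 8.8e-06). CENPE, a kinesin that moves chromosomes to the spindle equator, had 1856, 2192 and 2310 in siTAZ, against 2672, 2380 and 2433 in siNT, a log2 fold change of -0.24 (limma adjusted p = 0.0083). That of CENPE shrank to -0.15 without siTAZ replicate 1 and to -0.10 without replicate 1 of both groups (limma adjusted p = 0.049). CENPF, a large kinetochore protein, had overlapping groups, at 3673, 4452 and 4142 in siTAZ and 4621, 4397 and 4403 in siNT (limma adjusted p = 0.068). CENPF passed as lower without siTAZ replicate 2 (0.014) and after the GC correction described below (0.0015).

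Chromosome structure genes both fell slightly. TOP2A, the topoisomerase that untangles sister chromatids, averaged 9200 ± 791 in siTAZ and 10790 ± 479 in siNT (log2 fold change -0.23, limma adjusted p = 0.0024). NCAPG, a condensin I subunit, averaged 2994 ± 205 in siTAZ and 3542 ± 170 in siNT (SD, n = 3 each, log2 fold change -0.24, limma adjusted p = 0.0014). Of the spindle genes, HMMR, which helps focus spindle poles, had 1606, 1810 and 1971 in siTAZ, against 2534, 2295 and 2420 in siNT, and fell 1.35-fold (limma adjusted p = 3.2e-05). DLGAP5, the HURP protein that stabilises kinetochore fibres, fell 1.32-fold (limma adjusted p = 8.5e-06). NUSAP1, which bundles spindle microtubules, and ASPM, a spindle pole protein, did not pass, with intervals of -0.15 to 0.05 and -0.08 to 0.21. ASPM had 3395, 3993 and 4148 in siTAZ and 3996, 3467 and 3539 in siNT, and passed as higher without siTAZ replicate 1 (limma adjusted p = 0.022).

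Neither transcription factor of the programme passed the test. FOXM1, a forkhead activator of late cell cycle genes, had 9507, 8628 and 8825 in siTAZ, against 7925, 8457 and 8454 in siNT. Every siTAZ library was above every siNT library, but the log2 fold change of 0.12 (interval 0.01 to 0.22) had a limma adjusted p of 0.051. FOXM1 passed as higher under 8 of 19 alternatives, among them edgeR (adjusted p = 0.031), limma voom (0.029) and limma without siTAZ replicate 2 (0.042). Without replicate 1 of both groups its log2 fold change was 0.045 (limma adjusted p = 0.21). MYBL2, the B-MYB factor that joins MuvB, had 14046, 12404 and 12904 in siTAZ and 12798, 13789 and 14043 in siNT, with an interval of -0.16 to 0.06. Without replicate 1 of both groups, MYBL2 passed as lower, at -0.14 (limma adjusted p = 0.00052).

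**Figure D4:**
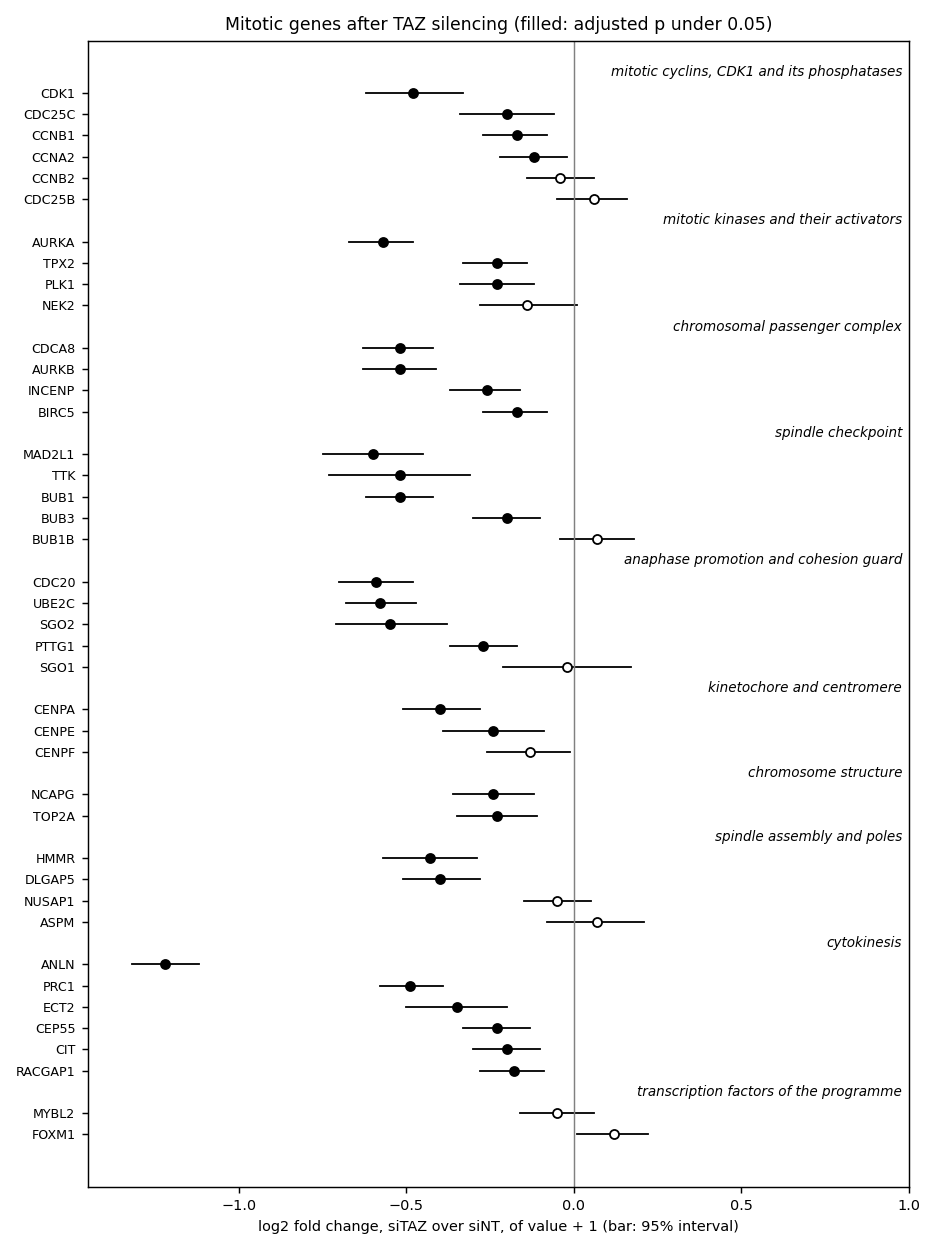
Log2 fold change, siTAZ over siNT, of value + 1 (horizontal axis) for each of the 41 members by role, with the 95% interval from limma as a bar. Filled points passed an adjusted p of 0.05, and all 31 of these lie below 0, ANLN at -1.22 farthest.

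Per kilobase of the longest annotated transcript, UBE2C (deposited value 5453 per kb in siTAZ and 8121 in siNT), TPX2 (5651 in siTAZ and 6639 in siNT) and MYBL2 (4851 in siTAZ and 5009 in siNT) were the most abundant members in both groups, and SGO1 was the least (184 in siTAZ and 187 in siNT). TPX2 stood above UBE2C in siTAZ and below it in siNT. Transcript lengths are of a later annotation than the authors' build, so these levels are approximate.

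The deviation of replicate 1 from the other replicates followed the base composition of the transcripts. In 25 members siTAZ replicate 1 was the lowest of its group, and in 21 of these siNT replicate 1 was the highest of its own. These 25 had a median GC content of 40.8%. In 10 members siTAZ replicate 1 was the highest, and in all 10, CDC20, UBE2C, AURKB, CENPA, INCENP, PLK1, BIRC5, MYBL2, CDC25B and FOXM1, siNT replicate 1 was the lowest. These 10 had a median GC content of 56.4%. Across the 41 genes, Pearson's r between GC content and the log2 deviation of replicate 1 from the other replicates was 0.86 in siTAZ and -0.88 in siNT, as a description over genes that share the same libraries. The log2 fold change itself had an r of 0.15 with GC content. After a GC correction, added after seeing the data, 33 members were called lower, all of the 31 among them, with a median of -0.25. CENPF and NEK2 were the falls gained, and CDC25B and FOXM1 were called higher. Over all genes, 5287 were called lower and 5470 higher after this correction, against 4730 and 4874 in the reported fit. Without replicate 1 of both groups, 31 were called lower, 30 of them shared, with a median of -0.19, and the falls of CCNA2, CENPE, ECT2, NCAPG, TOP2A and TTK shrank by over 1.5 times, to -0.08, -0.10, -0.19, -0.15, -0.13 and -0.29 on the log2 scale. ASPM (0.22) and BUB1B (0.13) were then called higher. Over all genes, that fit called 5031 lower and 5174 higher. In the same fit the falls of CDK1, SGO2 and HMMR shrank by a smaller factor, from -0.48, -0.55 and -0.43 to -0.33, -0.40 and -0.32. Those of AURKB, PLK1 and INCENP grew, from -0.52, -0.23 and -0.26 to -0.60, -0.31 and -0.33.

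**Figure D5:**
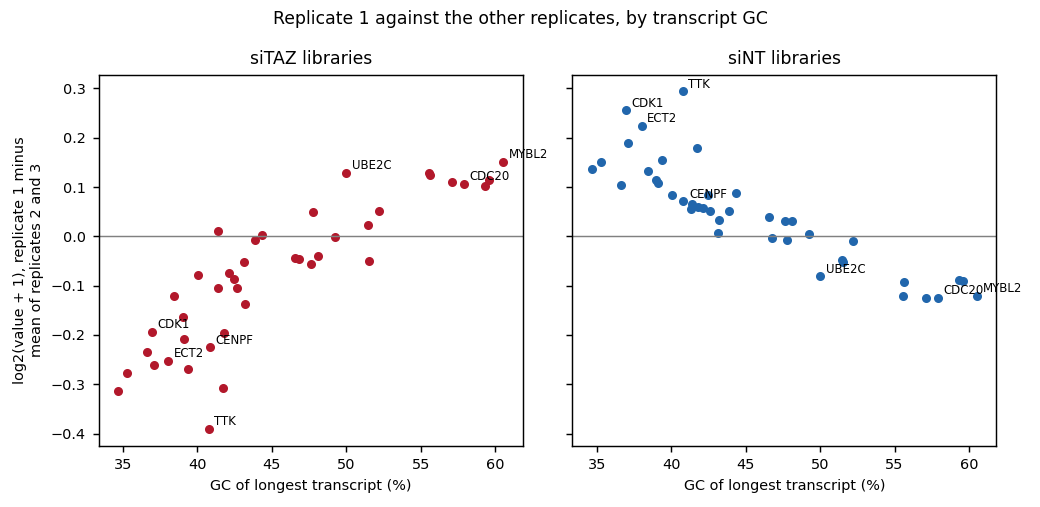
Log2(value + 1) of replicate 1 minus the mean of replicates 2 and 3 (vertical axis) against the GC content of the longest transcript in percent (horizontal axis), for the 41 members in the siTAZ libraries (left) and the siNT libraries (right). The points rise with GC content in siTAZ (r = 0.86) and decline with it in siNT (r = -0.88).

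Beyond the 41, a list of 118 other genes of mitosis was more mixed: 61 fell (51.7%), 16 rose and 41 missed the threshold, where 27.5% of all genes tested were called lower and 28.3% higher. Their median log2 fold change was -0.16. Mitotic kinesins fell in 6 of 12 cases and rose in 0. KIF23, the centralspindlin motor that pairs with RACGAP1, averaged 2168 ± 104 in siTAZ and 3586 ± 173 in siNT, and KIF20A, which carries the passenger complex to the midzone, 4304 ± 99.1 in siTAZ and 6396 ± 39.3 in siNT (SD, n = 3 each, limma adjusted p = 5.6e-09 and 9.1e-09). KIF2C, which corrects faulty attachments, fell 1.51-fold (limma adjusted p = 2.2e-08). Of 22 kinetochore genes, 12 fell and 1 rose, led by CENPN, SKA3 and SPC24, which fell by 0.60, 0.57 and 0.55. Entry regulators fell in 10 of 14 cases. WEE1 and PKMYT1, the kinases that hold CDK1 inactive, fell 1.37-fold and 1.34-fold, beside the fall of CDK1 itself. MKI67, the Ki-67 antigen used as a proliferation marker, was against this direction and rose, to 10244 ± 229 in siTAZ, against 8609 ± 404 in siNT (log2 fold change 0.25, limma adjusted p = 2.0e-04).

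Of 14 condensin and cohesin genes, 8 fell and 4 rose, where 28.3% of all genes were called higher. NCAPH, a condensin I subunit, fell 1.52-fold (limma adjusted p = 7.4e-09), and CDCA5, sororin, fell by 0.38 on the log2 scale. The cohesin subunits SMC1A, STAG2 and RAD21 and the cohesin release factor WAPL were the 4 that rose, by 0.11, 0.16, 0.22 and 0.32 on the log2 scale, named after their values were seen. The cohesin subunit SMC3 did not pass (log2 fold change -0.01, limma adjusted p = 0.93), and ESPL1, the separase that cleaves cohesin, fell by 0.20, both also named after their values were seen. Of 16 genes of the anaphase-promoting complex and its inhibitors, 6 fell (37.5%) and 3 rose, and the share called lower was near the 38.4% among all genes with a mean of at least 1000. ANAPC11, the catalytic RING subunit, fell 1.87-fold, to 975 ± 81.9 in siTAZ, against 1819 ± 70 in siNT, MAD2L1BP, which silences MAD2, fell 1.57-fold, and TRIP13, its partner ATPase, fell by 0.40 on the log2 scale. Of 13 spindle and centrosome genes, 7 fell and 1 rose. TUBG1, gamma-tubulin, fell 1.44-fold, KPNA2, an importin, fell 1.26-fold, and SPAG5, astrin, fell by 0.26 on the log2 scale.

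Of 15 further genes of the cytokinesis machinery, 5 fell (33.3%) and 5 rose, near the shares over all genes of 27.5% lower and 28.3% higher. DIAPH3, a formin, fell 1.36-fold, whereas GAS2L3, a linker of actin and microtubules, rose, to 1909 ± 175 in siTAZ, against 1216 ± 114 in siNT (log2 fold change 0.65, limma adjusted p = 9.5e-07), and SEPTIN9 rose by 0.29. Of 12 partners of MuvB, B-MYB and E2F, 7 fell and 1 rose. RBL2, the pocket protein p130, fell by 0.41 on the log2 scale, RBBP4, a MuvB subunit, fell 1.29-fold, and E2F1 fell 1.31-fold. The riser was LIN54, at 0.27 on the log2 scale (limma adjusted p = 0.0039), named after its value was seen.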

How the data were processed

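The data are 1 table of gene values for 6 libraries (3 siTAZ and 3 siNT), grouped by sample title. Cells had 100 pmol of siRNA for 2 days and were collected on day 3, per the labels' protocols. FastQC, HISAT2, HTSeq and DESeq2 were used with build hg19, per the submitters' processing notes, with their versions, annotation, strand setting and gene filter not given in the sources used here. Deposited values are a signal: in every library 100% were whole multiples, within 0.001, of what 1 read is worth, so they are reads over a size factor (0.828 to 1.17), and whole reads were recovered. The labels call the libraries biological replicates without naming separate cultures, so the p-values cover only how these samples vary, which may be technical.

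Limma 3.58.1 (R 4.3.3) with an intensity trend was fitted to log2(value + 1) for genes whose mean reached 1 (17204), with no covariate. The normalized unit decided this over the count test. EdgeR 4.0.16, DESeq2 1.42.0 and voom on the recovered reads were alternatives, beside other pseudocounts, filters, scalings, a test against a fold of 1.2, a replicate block and leaving out each library. Limma and edgeR were also run on simulated counts with the same dispersion for every gene and no GC trend. That run cannot show how they handle the GC trend of replicate 1. Whether the titles' replicate numbers pair the samples could not be told, and the reported fit used no pairing. Names came from an Ensembl identifier table and GENCODE release 29, as did transcript length and GC content, and promoter windows from RefSeq. Figures were drawn with matplotlib 3.10.9.

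The members and lists were chosen with earlier results of these data known. All 41 members are reported, and of the other mitosis genes up to 3 called ones with the smallest adjusted p per role group, with exceptions marked in the text. Intervals are at 95%, and depth limits counting error only.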

Additional observations from a re-analysis of the deposited data

How the results depend on the processing

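Of the 31 falls, 15 were called in the same direction under all 19 alternatives, 29 under all but the test against a fold of 1.2, and none reversed. CCNA2 and CDC25C were the exceptions. The count of members called lower was 29 to 33 under the other alternatives, 29 to 30 without any single library, and 15 against a fold of 1.2, where 11.2% of all genes were called lower. Members called higher numbered 0 in the reported fit and 0 to 2 without any single library (ASPM and BUB1B without siTAZ replicate 1, FOXM1 without siTAZ replicate 2). They numbered 1 with the 1 CPM filter, edgeR, voom and TMM scaling, and 2 with total count scaling, without replicate 1 of both groups, and with the GC correction, with or without the replicate block. The members' median was -0.18 under total count scaling, which moved the median of all genes to 0.052, and -0.20 to -0.26 without any single library.

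Other mitosis genes called lower numbered 18 against a fold of 1.2, and 55 to 61 without any single library. Those called higher numbered 9 with the replicate block, 1 against a fold of 1.2, 10 to 16 without any single library and 24 without replicate 1 of both groups. All genes called lower and higher numbered 1920 and 2497 against a fold of 1.2. Under the other alternatives they numbered 4046 to 5287 lower and 4298 to 5561 higher. Signs turned, none of them called, for CCNB2 (0.014), SGO1 (0.031), NUSAP1 (0.002) and MYBL2 (0.006) under total count scaling, for SGO1 without siTAZ replicate 1 (0.08) or siNT replicate 1 (0.037), within a range of -0.09 to 0.08 over the single libraries left out, and for SGO1 (0.14), NUSAP1 (0.001) and CDC25B (-0.006) without replicate 1 of both groups. The cause was not tested. Same-numbered samples' deviations correlated at -0.14, -0.083 and 0.024. The GC trends of replicate 1, opposite in siTAZ and siNT, enter these correlations, so they cannot tell whether the titles' numbers pair the samples. The replicate block left 29 members called lower and 0 higher. At a median value of 4262, counting error is small for the members, and the spread between 3 libraries limits what could be called. The GC correction and the removal of replicate 1 of both groups were chosen after seeing the data.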

Other observations

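The link between replicate 1 and base composition was not particular to mitotic genes. Over 6298 genes with a mean value of at least 1000 and a known transcript, Pearson's r between GC content and the log2 deviation of replicate 1 from the other replicates was 0.82 in siTAZ and -0.83 in siNT, as a description across genes that share the same libraries. The members had a median GC content of 43.2%, against 48.6% for these genes.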
